A study of Mus musculus with 9 samples.

Results

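Spp1, which encodes the secreted phosphoprotein osteopontin, and 8 genes of its cell-surface receptors were followed in the ventricular apex of newborn CD-1 mice by RNA sequencing. The receptor genes were Cd44 and the integrin subunits Itgav, Itga4, Itga5, Itga9, Itgb1, Itgb3 and Itgb5. The genes were chosen by symbol, Spp1 because of its values in resected against sham-operated hearts and the others because their proteins are known to bind osteopontin. All 9 genes, and the lists of other genes below, were chosen with earlier results of these data known. Their p-values against sham are therefore not independent of that choice. The 9 genes were all found among the 14479 genes of the deposited matrix, and 9 of 9 passed the filter for testing, a mean over the 9 libraries of 1 FPKM or more, which 13249 genes passed. FPKM stands for fragments per kilobase of transcript, scaled to the size of the library. The 9 libraries formed groups of 3: apical resection of the ventricle with left vagotomy (vagotomy libraries), apical resection alone (resection libraries) and sham surgery (sham libraries). All pups were CD-1 mice operated on postnatal day 1, and tissue of the lower ventricular apex was collected on postnatal day 2. No group with vagotomy alone was analysed here, so vagotomy can be compared only on top of resection. Whether the libraries of a group came from different pups is not stated, so p-values here refer to the spread among these samples, which may be technical.

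Osteopontin is a flexible matrix protein and cytokine that is secreted by macrophages, fibroblasts and other cells of injured tissue. It binds integrins through an arginine-glycine-aspartate motif and through a neighbouring stretch that thrombin cleavage uncovers, and it also acts through CD44, the hyaluronan receptor. An integrin is a pair of one alpha and one beta subunit. Osteopontin binds the alpha-v subunit paired with beta-1, beta-3 or beta-5, and the alpha-4, alpha-5 and alpha-9 subunits paired with beta-1. In heart tissue osteopontin is known for its presence in wounds and in remodelling after injury.

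Spp1 (ENSMUSG00000029304) lies at chr5:104435118-104441050 on the plus strand of GRCm38, and its receptor Cd44 (ENSMUSG00000005087) at chr2:102811141-102901665 on the minus strand. On the same build, Itgav lies at chr2:83724397-83806916, Itga4 at chr2:79255426-79333123, Itga9 at chr9:118606690-118901003, Itgb1 at chr8:128685654-128733200, Itgb3 at chr11:104608000-104670476 and Itgb5 at chr16:33829665-33949338, all on the plus strand, and Itga5 at chr15:103344286-103366763 on the minus strand. The stretch of Spp1 coding sequence that carries both integrin-binding elements is shown first because it ties the ligand to the integrin genes described below. It spans 60 bases at chr5:104439466-104439525 within a coding sequence of 294 codons (GENCODE M21, GRCm38). The capitals mark the 3 codons of the arginine-glycine-aspartate motif, which start at codon 144, and the 7 codons directly after them, which form the element that alpha-4 and alpha-9 integrins bind once thrombin has cut the protein.
Spp1 coding stretch: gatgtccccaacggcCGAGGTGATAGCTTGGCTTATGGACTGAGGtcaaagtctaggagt

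The promoters of Spp1 and Cd44 are shown because these 2 genes had the largest differences from sham among the 9, both with vagotomy and after resection alone. Both windows run from 250 bases before to 50 bases after a start site, are credited to RefSeq on GRCm38.p6, and are written in the direction of transcription. The Spp1 window is chr5:104434861-104435160 on the plus strand, with a start site 7 bases from that of GENCODE. A second Spp1 window, 1074 bases from the GENCODE start, held none of the motifs named next and is not shown. The Cd44 window is chr2:102901616-102901915 on the minus strand. Capitals mark matches, on either strand, to the RUNX core ACCACA, the AP-1 site TGANTCA, the CCAAT box CCAAT, the TATA box TATAAA and the E-box CACGTG.
Spp1 promoter: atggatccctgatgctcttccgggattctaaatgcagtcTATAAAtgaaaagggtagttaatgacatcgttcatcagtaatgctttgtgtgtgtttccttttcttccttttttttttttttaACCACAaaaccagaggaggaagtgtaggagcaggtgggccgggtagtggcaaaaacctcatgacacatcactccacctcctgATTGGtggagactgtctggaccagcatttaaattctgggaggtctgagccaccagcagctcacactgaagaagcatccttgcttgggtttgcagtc
Cd44 promoter: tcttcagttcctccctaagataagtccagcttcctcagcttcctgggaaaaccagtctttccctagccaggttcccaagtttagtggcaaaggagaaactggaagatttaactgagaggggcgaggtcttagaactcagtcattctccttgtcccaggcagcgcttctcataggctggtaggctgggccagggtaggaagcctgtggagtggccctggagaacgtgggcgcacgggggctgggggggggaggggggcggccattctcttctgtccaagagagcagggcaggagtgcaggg

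The Spp1 window held 1 RUNX core, 128 bases before the start site, and 16.8% of the 32851 mouse promoter windows held one. It also held the CCAAT letters on the minus strand, 46 bases before the start site (37.4% of windows). The letters TATAAA stood 211 bases before it (13.6% of windows). These shares count the letters anywhere in a window, on either strand. The AP-1 letters (7.81% of windows) and the E-box letters (7.15%) were not found in it. The Cd44 window held none of the 5 motifs. The G and C content was 45.3% in the Spp1 window and 58.0% in the Cd44 window, against a median of 52.7% over all windows. Windows were found for 8 of the 9 genes. Those of Itgav, Itgb1, Itgb5 and Itga5 also held none of the motifs, that of Itga4 held 1 RUNX core and that of Itga9, which lies 105002 bases from the GENCODE start of the gene, held 1 AP-1 site. These matches describe letters and not binding.

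Over the whole series, the median level of a gene lay between 7.52 and 8.29 FPKM in each library. Any 2 libraries correlated across genes, which are not independent of each other, at 0.746 to 0.951. Read depth is not known from FPKM. The 9 cardiomyocyte markers were all listed, but Myh6 and Actc1 stood at 0 in all 3 vagotomy libraries while Tnnt2, the gene of cardiac troponin T, was at 2843 to 18822 FPKM there, and a value of 0 in such a file can be a failed estimate. Without both genes the other 7 markers summed to 12290 to 31283 FPKM with vagotomy, 9120 to 13183 FPKM after resection and 12018 to 14192 FPKM in sham. In the resection and sham libraries Actc1 was at 3600 to 7955 FPKM and Myh6 at 1326 to 3718 FPKM. Any difference in processing between the vagotomy libraries and the others cannot be told apart from vagotomy in the comparisons below.

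Spp1 was low in sham hearts and among the abundant transcripts after either operation on the ventricle. Its level was 473, 787 and 268 FPKM in the vagotomy libraries, 273, 176 and 316 FPKM in the resection libraries, and 2.08, 5.22 and 11.5 FPKM in the sham libraries. Every library with a resected ventricle lay above every sham library, and vagotomy replicate 3 lay within the range of resection alone. The group levels were 509 ± 262 FPKM with vagotomy, 255 ± 71.5 FPKM after resection and 6.26 ± 4.78 FPKM in sham (SD, n = 3 each). Ordered by level among all 14479 genes, Spp1 took places 114, 77 and 273 in the vagotomy libraries, places 252, 355 and 172 in the resection libraries, and places 11275, 8683 and 5610 in the sham libraries. The ratio of mean FPKM was 81.3 for vagotomy over sham and 40.8 for resection over sham. On the log2(FPKM + 1) scale, which understates changes of low genes, the differences from sham were 6.23 (SE 0.53) for vagotomy and 5.33 (SE 0.53) for resection. Spp1 was selected for its difference from sham, so these values are a description and carry no test.

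**Figure D1:**
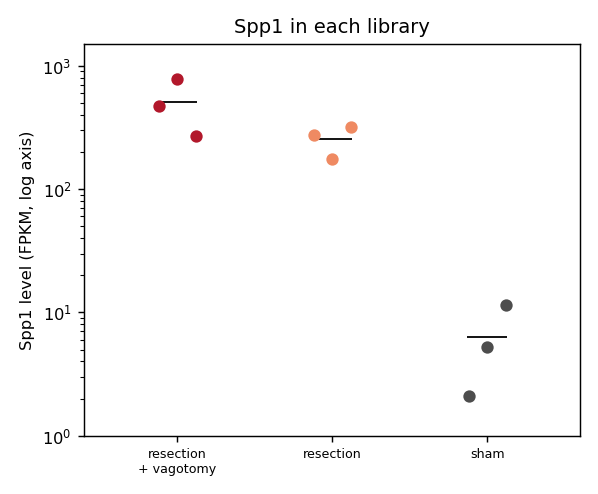
Spp1 level in FPKM (log axis) in each of the 9 libraries, with a horizontal bar at each group mean; groups run from resection with vagotomy through resection to sham. The 6 resected libraries sit between 176 and 787 FPKM, and the 3 sham libraries between 2.08 and 11.5 FPKM.

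The comparison that the choice of Spp1 did not use is vagotomy against resection alone, which asks whether loss of left vagal input changes the response of the resected apex. It shares the resection libraries with the contrast that brought Spp1 forward. Mean Spp1 was 2.00 times as high with vagotomy, at 509 ± 262 FPKM, as after resection alone, at 255 ± 71.5 FPKM. The log2 difference was 0.90 (SE 0.53, 95% interval -0.26 to 2.07), and limma's moderated test with Benjamini-Hochberg adjustment over 13249 genes gave an adjusted p of 0.32. The interval holds 0, so the test did not separate vagotomy from resection, nor does it show that they are alike. Without vagotomy replicate 2 the log2 difference was 0.52, and without vagotomy replicate 3 it was 1.30. In the authors' deposited table, made with Cuffdiff, the same comparison had 507 FPKM with vagotomy and 254 FPKM after resection and a q-value of 0.00531. That table marked Spp1 as significant, among 17.1% of its 14083 tested genes. The call therefore depends on the test used, and in 18 alternative settings of the limma fit the adjusted p stayed between 0.239 and 0.634.

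CD44 is the hyaluronan receptor of leukocytes and activated stromal cells, and osteopontin also acts through it. Cd44 was at 17.5, 17.8 and 26.7 FPKM in the vagotomy libraries, 16.0, 24.7 and 39.7 FPKM in the resection libraries, and 5.32, 7.09 and 9.48 FPKM in the sham libraries. The sham libraries lay below all 6 resected libraries, and the vagotomy and resection ranges overlapped. The group levels were 20.7 ± 5.27 FPKM, 26.8 ± 11.95 FPKM and 7.30 ± 2.08 FPKM with vagotomy, after resection and in sham (SD, n = 3 each). Cd44 rose in vagotomy libraries against sham, with a log2 difference of 1.39 (SE 0.35, 95% interval 0.62 to 2.16, limma adjusted p = 0.035). This comparison shares the sham libraries with resection against sham. The genes were chosen with earlier results known, so the p is not independent of that choice. That call rests on each library: the adjusted p was 0.0636, 0.0696 and 0.0993 without vagotomy replicates 1, 2 and 3, and 0.0737, 0.127 and 0.0873 without sham replicates 1, 2 and 3, with a range of 0.00897 to 0.127 over 18 alternatives. Between resection and sham the log2 difference was 1.68 (SE 0.35), given as a description. Between vagotomy and resection it was -0.29 (SE 0.35, 95% interval -1.06 to 0.47, limma adjusted p = 0.643). Cd44 made up 4.42% ± 0.441 of the summed FPKM of the 8 receptor genes with vagotomy, 5.71% ± 2.34 after resection and 1.81% ± 0.351 in sham (SD, n = 3 each).

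Among the alpha subunits, Itgav encodes alpha-v, the subunit common to the vitronectin receptors. Itgav was at 46.2, 35.1 and 44.1 FPKM in the vagotomy libraries, 19.0, 41.8 and 23.4 FPKM in the resection libraries, and 18.2, 26.1 and 25.3 FPKM in the sham libraries. All 3 vagotomy libraries lay above all 3 sham libraries, while resection replicate 2 reached the vagotomy range. The log2 difference was 0.83 between vagotomy and sham (SE 0.31, 95% interval 0.14 to 1.52, limma adjusted p = 0.108) and 0.63 between vagotomy and resection (SE 0.31, 95% interval -0.06 to 1.32, limma adjusted p = 0.246). Neither passed the threshold of 0.05 after adjustment over all tested genes. Between resection and sham the log2 difference was 0.20 (SE 0.31).

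Itga5 encodes the alpha subunit of the main fibronectin receptor. Its level was 38.7, 43.5 and 45.3 FPKM in the vagotomy libraries, 73.2, 39.6 and 46.5 FPKM in the resection libraries, and 46.1, 31.1 and 28.9 FPKM in the sham libraries. The 3 ranges overlapped, with sham replicate 1 above 4 of the 6 resected libraries. The log2 difference was -0.27 between vagotomy and resection (SE 0.29, 95% interval -0.92 to 0.38, limma adjusted p = 0.615) and 0.29 between vagotomy and sham (SE 0.29, 95% interval -0.36 to 0.94, limma adjusted p = 0.549).

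Itga9 encodes alpha-9, a receptor subunit for the thrombin-cleaved form of osteopontin and for tenascin-C. Its level was 9.32, 12.1 and 13.5 FPKM in the vagotomy libraries, 7.67, 12.1 and 21.6 FPKM in the resection libraries, and 14.9, 19.2 and 15.3 FPKM in the sham libraries. All vagotomy libraries lay below all sham libraries, and the resection libraries spread over both ranges. The log2 difference of vagotomy from sham was -0.47 (SE 0.34, 95% interval -1.21 to 0.28, limma adjusted p = 0.373), and that of vagotomy from resection was -0.13 (SE 0.34, 95% interval -0.87 to 0.61, limma adjusted p = 0.852). Itga4, whose alpha-4 subunit serves leukocyte adhesion and also binds VCAM-1, was the lowest of the 9 genes by mean in each group. It stood at 1.36, 1.19 and 1.03 FPKM in the vagotomy libraries, 0.626, 1.67 and 1.37 FPKM in the resection libraries, and 0.491, 0.844 and 1.31 FPKM in the sham libraries, with overlapping ranges. Its log2 difference was 0.01 between vagotomy and resection (SE 0.30, 95% interval -0.64 to 0.67, limma adjusted p = 0.989) and 0.24 between vagotomy and sham (SE 0.30, 95% interval -0.41 to 0.90, limma adjusted p = 0.621). Itga4 overlaps Cerkl on the opposite strand and shares the authors' locus with 5 other genes. Itga9 shares its locus with 3 other genes, Itgav with 2, and Cd44 and Itga5 with 1 each. How strand was counted is not given in the sources used here, so reads of overlapping genes cannot be told apart.

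Each alpha subunit reaches the cell surface together with a beta subunit. Itgb1, the common partner of many alpha subunits, was the most abundant receptor gene in all 3 groups, at 219, 293 and 456 FPKM in the vagotomy libraries, 234, 363 and 306 FPKM in the resection libraries, and 191, 352 and 324 FPKM in the sham libraries. It took 67.3% ± 6.14 of the summed receptor FPKM with vagotomy, 64.3% ± 5.14 after resection and 70.7% ± 8.9 in sham (SD, n = 3 each). The ranges overlapped, and the log2 difference was 0.06 between vagotomy and resection (SE 0.37, 95% interval -0.75 to 0.87, limma adjusted p = 0.945) and 0.14 between vagotomy and sham (SE 0.37, 95% interval -0.67 to 0.95, limma adjusted p = 0.829).

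Itgb3 pairs with alpha-v in the classical osteopontin receptor of osteoclasts and with the platelet alpha-IIb subunit. Its level was 1.87, 2.05 and 2.69 FPKM in the vagotomy libraries, 2.43, 2.30 and 2.88 FPKM in the resection libraries, and 1.72, 1.62 and 1.88 FPKM in the sham libraries. The resection libraries lay above the sham libraries, with a log2 difference of 0.36 (SE 0.23) given as a description. Vagotomy replicate 1 lay within the sham range, and the log2 difference of vagotomy from sham was 0.22 (SE 0.23, 95% interval -0.30 to 0.73, limma adjusted p = 0.569). Between vagotomy and resection it was -0.15 (SE 0.23, 95% interval -0.66 to 0.37, limma adjusted p = 0.741). Itgb5, the other alpha-v partner, was at 21.8, 35.4 and 28.7 FPKM in the vagotomy libraries, 44.3, 39.8 and 31.3 FPKM in the resection libraries, and 38.2, 23.6 and 23.5 FPKM in the sham libraries. Its ranges overlapped, and the log2 difference of vagotomy from resection was -0.42 (SE 0.29, 95% interval -1.06 to 0.21, limma adjusted p = 0.395), and that of vagotomy from sham was 0.02 (SE 0.29, 95% interval -0.62 to 0.66, limma adjusted p = 0.972).

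**Figure D2:**
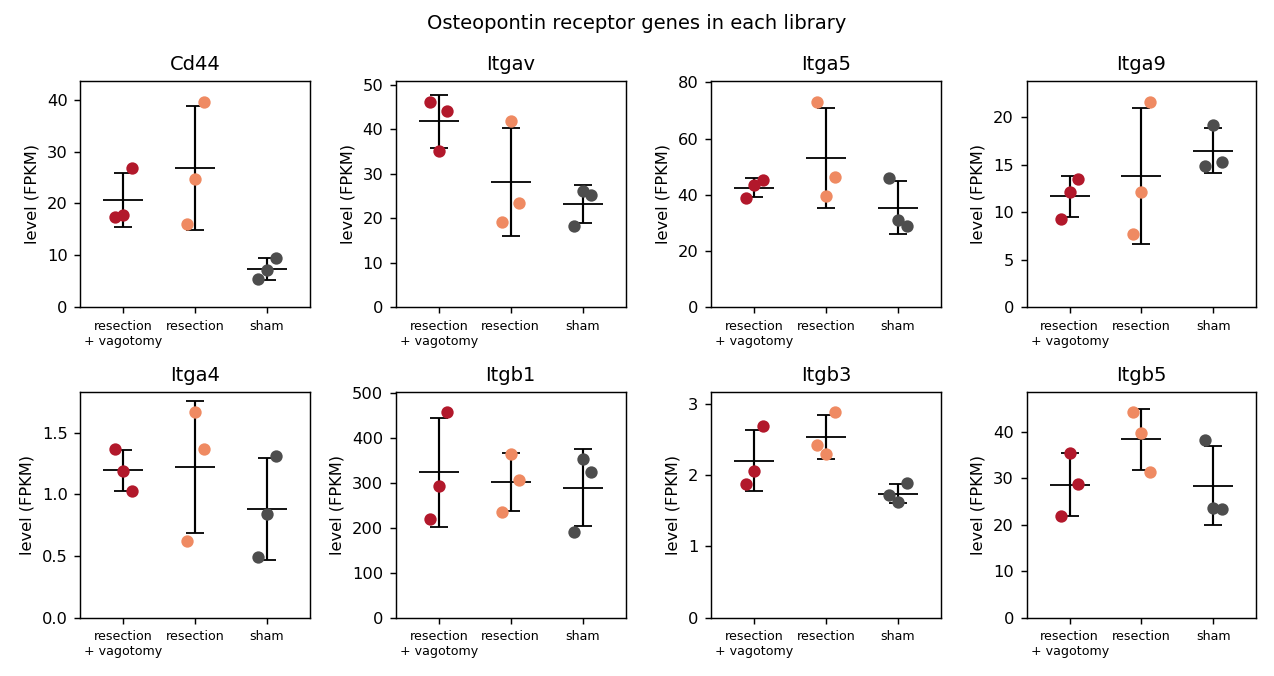
Level in FPKM of Cd44 and the 7 integrin subunit genes in each library, with the group mean and 1 SD (n = 3), for resection with vagotomy, resection and sham from left to right; each panel has its own axis from 0. Cd44 separates the 6 resected libraries (16.0 to 39.7 FPKM) from sham (5.32 to 9.48 FPKM), and Itgb1 reaches the highest levels, up to 456 FPKM.

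The order of the 9 genes by level, which FPKM allows because it is per transcript length, differed between groups most in the place of Spp1. With vagotomy it ran Spp1, Itgb1, Itga5, Itgav, Itgb5, Cd44, Itga9, Itgb3 and Itga4. After resection it ran Itgb1, Spp1, Itga5, Itgb5, Itgav, Cd44, Itga9, Itgb3 and Itga4. In sham it ran Itgb1, Itga5, Itgb5, Itgav, Itga9, Cd44, Spp1, Itgb3 and Itga4. Neighbours whose library ranges overlapped were Spp1 and Itgb1 in both resected groups, the run from Itga5 to Cd44 in both resected groups (on to Itga9 after resection alone), the run from Itga5 to Itga9 in sham, and Cd44 and Spp1 in sham. Spp1 made up 50.5% ± 17.9 of the summed FPKM of the 9 genes with vagotomy, 35.3% ± 8.8 after resection and 1.46% ± 1.02 in sham (SD, n = 3 each). The 8 receptor genes summed to 472 ± 134 FPKM with vagotomy, 465 ± 64.2 FPKM after resection and 403 ± 76.6 FPKM in sham.

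Set against its partner, each alpha subunit that pairs with beta-1 was below Itgb1 in 9 of 9 libraries. Itga5 was at 9.93% to 17.7% of the Itgb1 level in the vagotomy libraries, 10.9% to 31.3% in the resection libraries and 8.82% to 24.1% in the sham libraries. Itgav was at 9.65% to 21.1% of Itgb1 in the vagotomy libraries, 7.62% to 11.5% in the resection libraries and 7.41% to 9.53% in the sham libraries. Itga9 was at 2.97% to 4.25%, 3.28% to 7.06% and 4.70% to 7.80% of Itgb1 with vagotomy, after resection and in sham, and Itga4 was below 1% of it throughout (0.226% to 0.623% over the 9 libraries). Itgb3 was the scarcer partner of alpha-v in every library, since Itgav stood at 785% to 2472% of it. Itgav was below Itgb5 in 4 of 9 libraries, and stood at 99.2% to 212% of Itgb5 in the vagotomy libraries, 43.0% to 105% in the resection libraries and 47.7% to 110.5% in the sham libraries.

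Counted over all 9 genes, none passed between vagotomy and resection by limma, where 3.52% of tested genes did (466 genes, against 24.2% at an unadjusted p under 0.05). The replicate number of the sample titles was also used as a block, because same-numbered vagotomy and resection libraries deviated weakly together (correlations of 0.117 to 0.199). Libraries titled replicate 3 carry numbers that differ between groups in the deposited matrix, so the block may not reflect a real pairing. With it 1277 genes passed, and again 0 of the 9 did. At an unadjusted p under 0.05 the count among the 9 was also 0, and the authors' table marked 1 of 9, Spp1. No gene of the 9 had separate vagotomy and resection ranges, against 26.2% of tested genes. Between vagotomy and sham, limma called 2 of 9 higher, Spp1 and Cd44, and 0 lower, against 5.81% of tested genes higher and 4.26% lower (30.1% in either direction at an unadjusted p under 0.05). The Spp1 call used the sham libraries by which the gene had been chosen, and the Cd44 call used the same libraries. Both are counted here as a description. Ranges were separate and higher with vagotomy for Spp1, Cd44 and Itgav (19.7% of tested genes) and lower for Itga9 (17.0%). Between resection and sham, the contrast that brought Spp1 forward, limma called 1 of 9, Spp1 (0.287% of tested genes higher, and 5.89% in either direction at an unadjusted p under 0.05), and the authors' deposited table marked Spp1, Cd44 and Itga5 as significant (6.12% of 14011 genes). Ranges were separate and higher for Spp1, Cd44 and Itgb3 (6.36% of tested genes). Nothing is read from these last counts. The median log2 difference of the 8 receptor genes was -0.14 for vagotomy minus resection, 0.23 for vagotomy minus sham and 0.30 for resection minus sham, beside medians over all tested genes of 0.02, 0.03 and -0.01.

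**Figure D3:**
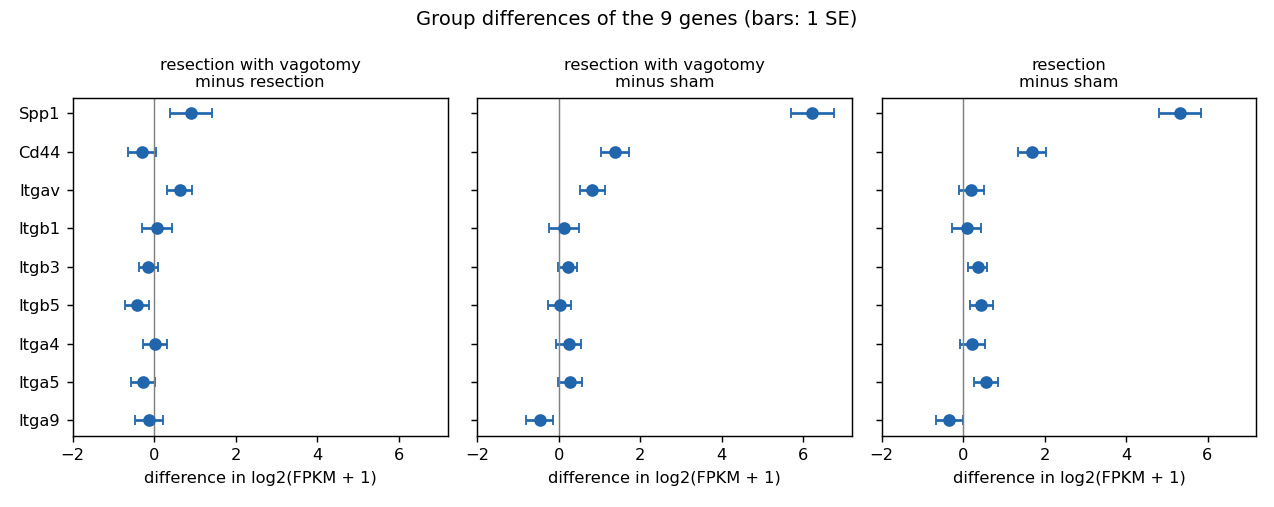
Differences in log2(FPKM + 1) for the 9 genes in the 3 comparisons, with bars of 1 SE from the limma fit to all 9 libraries. Spp1 stands at 6.23 and 5.33 against sham and Cd44 at 1.39 and 1.68, while between vagotomy and resection the values run from -0.42 for Itgb5 to 0.90 for Spp1.

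Other genes of the same adhesion system were examined as lists of named genes. Their counts at an unadjusted p under 0.05 stand against 24.2% of all tested genes for vagotomy and resection, 30.1% for vagotomy and sham and 5.89% for resection and sham. Counts after adjustment stand against 3.52% of tested genes for vagotomy and resection. For vagotomy and sham these shares are 5.81% higher and 4.26% lower, and for resection and sham 0.287% higher. Among 15 tested ligands that share these integrins, 5 were higher and 1 lower with vagotomy against sham at an unadjusted p under 0.05. After adjustment 2 rose and 0 fell. They were Tnc, the gene of tenascin-C, at 29.9 ± 1.1 FPKM with vagotomy and 10.7 ± 4.83 FPKM in sham (log2 difference 1.48, SE 0.31, adjusted p = 0.021), and Thbs1, the gene of thrombospondin-1, at 61.3 ± 20.6 and 18.0 ± 7.64 FPKM (log2 difference 1.74, SE 0.37, adjusted p = 0.0218; limma with Benjamini-Hochberg adjustment, n = 3 each). By limma 0 of the 15 passed between vagotomy and resection (1 at an unadjusted p under 0.05) and 0 between resection and sham (4 at an unadjusted p under 0.05). Fn1, the gene of fibronectin, stood at 115 ± 23.1 FPKM with vagotomy, 71.0 ± 14.3 FPKM after resection and 60.4 ± 6.45 FPKM in sham. Vcam1, the cell-surface ligand of alpha-4 integrin, stood at 31.6 ± 5.53, 36.4 ± 8.83 and 30.6 ± 6.39 FPKM in the same order. Postn, which encodes periostin, was at 180.1 ± 74.9 FPKM with vagotomy, 318 ± 107 FPKM after resection and 309.9 ± 41.2 FPKM in sham, and Vtn, the gene of vitronectin, was at or below 3.75 FPKM in all libraries. The median log2 difference of the list was -0.07 for vagotomy minus resection, 0.41 for vagotomy minus sham and 0.24 for resection minus sham.

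Of 13 other tested integrin subunits, 3 rose with vagotomy against sham, 1 rose after resection against sham and 0 fell in either. At an unadjusted p under 0.05, 5 were higher with vagotomy and 2 after resection against sham, and 0 were lower in either. Between vagotomy and resection 0 of the 13 passed (2 at an unadjusted p under 0.05), and with the replicate number as a block 1 did, Itga3, which was higher with vagotomy. Itgam and Itgb2 encode the subunits of the leukocyte integrin Mac-1. Itgam was at 14.7 ± 6.7 FPKM with vagotomy, 16.4 ± 5.45 FPKM after resection and 1.92 ± 1.76 FPKM in sham, and it rose with vagotomy against sham (log2 difference 2.51, SE 0.44, limma adjusted p = 0.0119) and after resection against sham (log2 difference 2.68, SE 0.44, limma adjusted p = 0.0382). Itgb2 was at 10.9 ± 6.13, 8.95 ± 4.75 and 0.884 ± 0.503 FPKM in the same order, and it rose with vagotomy against sham (limma adjusted p = 0.0128). Itga3, an alpha subunit of laminin receptors, was at 27.7 ± 6.65 FPKM with vagotomy, 10.5 ± 5.52 FPKM after resection and 7.49 ± 3.27 FPKM in sham, and it too rose with vagotomy against sham (limma adjusted p = 0.0213). Itga8, another osteopontin-binding alpha subunit, stood at 5.27 ± 3.07, 5.98 ± 2.42 and 8.52 ± 3.03 FPKM. Itgb6 stood at 2.37, 2.66 and 32.4 FPKM in the vagotomy libraries, with replicate 3 far above the others, at 1.12 ± 0.0416 FPKM after resection and at 2.64 ± 0.945 FPKM in sham.

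Integrins signal through adaptors that bind their beta tails. Of 21 tested adaptors and focal adhesion genes, 2 rose with vagotomy against sham and 0 fell. At an unadjusted p under 0.05, 4 of the 21 were higher and 0 lower there, a smaller share than the 30.1% of all tested genes. By limma 0 of the 21 passed between vagotomy and resection (3 at an unadjusted p under 0.05) and 0 between resection and sham (2 at an unadjusted p under 0.05). Fermt3, the kindlin of blood cells, was at 6.60 ± 1.77 FPKM with vagotomy, 3.30 ± 1.78 FPKM after resection and 0.951 ± 0.456 FPKM in sham (vagotomy against sham, limma adjusted p = 0.0129). Actn1, the gene of the actin crosslinker alpha-actinin-1, was at 56.3 ± 13.6, 53.9 ± 15.1 and 25.5 ± 2.5 FPKM (vagotomy against sham, limma adjusted p = 0.0362). Ptk2, which encodes focal adhesion kinase, was at 12.8 ± 2.67, 14.0 ± 1.98 and 13.6 ± 1.63 FPKM. Of 14 tested genes of hyaluronan and of the linkers between CD44 and actin, 0 passed by limma in any of the 3 comparisons. At an unadjusted p under 0.05 the counts were 2 for vagotomy against resection, 4 for vagotomy against sham and 3 for resection against sham. Has2, the main hyaluronan synthase of the developing heart, was at 1.41 ± 0.444 FPKM with vagotomy, 1.93 ± 0.926 FPKM after resection and 0.972 ± 0.14 FPKM in sham. Msn, the gene of the linker moesin, was at 80.4, 109 and 269 FPKM in the vagotomy libraries, 82.4 ± 13.1 FPKM after resection and 57.5 ± 11.0 FPKM in sham, and Hmmr, a hyaluronan receptor of dividing cells, was at 3.78 ± 1.95, 3.98 ± 2.14 and 9.08 ± 3.67 FPKM.

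Osteopontin is phosphorylated on its way through the secretory pathway, and outside the cell it is cut by proteases and crosslinked by transglutaminases. Of 8 tested modifier genes, 1 rose with vagotomy against sham, 1 rose after resection against sham and 0 fell. At an unadjusted p under 0.05, 3 were higher with vagotomy and 3 after resection against sham, and 0 were lower in either. Between vagotomy and resection 0 of the 8 passed by limma (2 at an unadjusted p under 0.05), and with the replicate number as a block 1 did, F13a1, which was lower with vagotomy. Mmp9, a metalloproteinase that cuts osteopontin, was at 15.6 ± 7.94 FPKM with vagotomy, 12.4 ± 6.77 FPKM after resection and 1.87 ± 0.865 FPKM in sham (vagotomy against sham, limma adjusted p = 0.0134). F13a1, the gene of the crosslinking factor XIII A chain, was at 11.96 ± 2.75, 23.1 ± 1.95 and 6.84 ± 1.92 FPKM (resection against sham, limma adjusted p = 0.0382). Tgm2, the tissue transglutaminase gene, was at 168 ± 31.6, 295 ± 109 and 242 ± 25.7 FPKM, and Fam20c, the kinase gene of secreted phosphoproteins, at 12.9 ± 3.27, 13.2 ± 2.12 and 6.99 ± 0.696 FPKM. Mmp3 and Mmp12 did not reach the mean of 1 FPKM and were not tested. The other 4 genes of the SIBLING phosphoprotein family, Ibsp, Dmp1, Dspp and Mepe, were not among the rows of the matrix, and the authors' deposited tables gave group values from 0 to 0.0403 FPKM for them. Of 10 tested factors described at the osteopontin promoter, 3 were higher and 0 lower with vagotomy against sham at an unadjusted p under 0.05. After adjustment 1 rose and 0 fell. That gene was Fosl1, an AP-1 subunit, at 2.20 ± 0.794 FPKM with vagotomy, 1.17 ± 0.444 FPKM after resection and 0.451 ± 0.216 FPKM in sham (vagotomy against sham, limma adjusted p = 0.0455). By limma 0 of the 10 passed between vagotomy and resection (1 at an unadjusted p under 0.05) and 0 between resection and sham (4 at an unadjusted p under 0.05). Runx1, a factor that binds the RUNX core, stood at 1.22 ± 0.458, 1.72 ± 0.627 and 0.332 ± 0.0877 FPKM.

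The median log2 differences of these lists are given for vagotomy minus resection, vagotomy minus sham and resection minus sham, beside 0.02, 0.03 and -0.01 over all tested genes. They were 0.06, 0.52 and 0.07 for the other integrin subunits, and 0.14, 0.25 and 0.17 for the adaptors. For the genes of hyaluronan and the CD44 linkers they were -0.09, 0.29 and 0.38. The modifiers had -0.24, 0.38 and 0.56, and the promoter factors -0.21, 0.69 and 0.79.

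Calls of the list genes were lost when libraries were left out, with little change in the size of the differences. Leaving out 1 library, the 9 log2 differences called with vagotomy against sham stayed at 82.9% to 121% of the full fit, and the 2 called after resection against sham at 87.3% to 117%. Over all genes the calls between vagotomy and sham numbered 1334, and 100 without sham replicate 2. Of the 9 called with vagotomy against sham, 0 were still called without sham replicate 2, 3 without sham replicate 3, 7 without sham replicate 1, and 5, 7 and 4 without vagotomy replicates 1, 2 and 3. Without resection replicate 3 the count was 8, the missing gene being Fosl1. Of the calls for Itgam and F13a1 between resection and sham, 0 remained without any 1 of resection replicates 1, 2 and 3, sham replicates 1 and 2 or vagotomy replicate 2. F13a1 alone remained without vagotomy replicate 1, and Itgam alone without vagotomy replicate 3 or sham replicate 3.

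The genes nearest to Spp1 in pattern were ranked by the root mean square difference over the 9 libraries, after each gene's log2(FPKM + 1) was centred on its own mean. The smallest difference was that of Arg1, the arginase gene of wound macrophages, at 1.04. It was followed by Il1rn, the interleukin-1 receptor antagonist gene (1.32), Cd14, the lipopolysaccharide co-receptor gene (1.39), Serpina3n, an acute-phase protease inhibitor gene (1.39), and S100a9, a calprotectin subunit gene (1.41). Arg1 was at 23.6, 42.5 and 85.6 FPKM in the vagotomy libraries, 66.9, 33.5 and 74.9 FPKM in the resection libraries, and 0.410, 0.478 and 2.96 FPKM in the sham libraries. Each of the 5 was higher in every resected library than in every sham library. Ranking by likeness to Spp1 favours such a separation, so it is not a further result. With a pseudocount of 0.1 or 5 in place of 1, only 2 and 3 of the 5 were again among the nearest. Among the 8 receptor genes Cd44 was nearest to Spp1, with a difference of 2.16 and place 98 of 11568 named genes, and Itga9 farthest, with 3.03 and place 9535. These ranks describe only likeness of pattern over the 9 libraries, since each gene's mean level was removed.

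**Figure D4:**
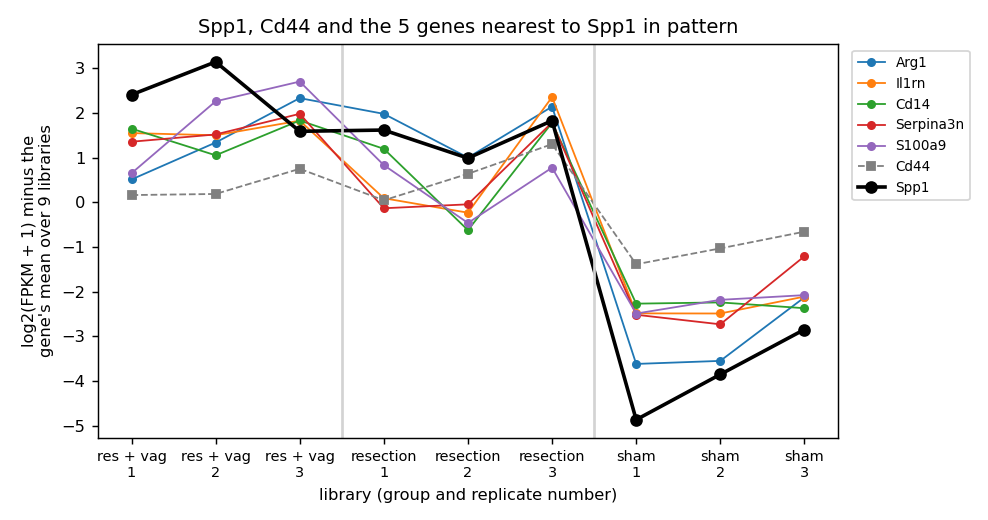
Centred log2(FPKM + 1) of Spp1 (thick black line), its 5 nearest genes and Cd44 (dashed) in the 9 libraries, ordered by group; lines join libraries for legibility and imply no sequence. All 7 genes lie lower in the 3 sham libraries than in the 6 resected ones, and Spp1 spans the widest range.

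Summed markers of macrophages, neutrophils and platelets, like Spp1 and Cd44, were higher in every resected library than in every sham library. The 14 macrophage markers summed to 177 to 254 FPKM in the vagotomy libraries, 175 to 318 FPKM in the resection libraries and 62.4 to 84.0 FPKM in the sham libraries. All 6 resected libraries lay above all 3 sham libraries. Lyz2, the lysozyme gene of myeloid cells, was at 131 ± 23.3 FPKM with vagotomy, 159 ± 46.9 FPKM after resection and 27.2 ± 11.6 FPKM in sham. It made up 56.6% to 60.2% of the sum in the vagotomy libraries, 59.8% to 68.0% in the resection libraries and 26.6% to 48.1% in the sham libraries. Without it the other 13 summed to 72.6 to 110.1 FPKM with vagotomy, 70.3 to 128 FPKM after resection and 40.0 to 52.0 FPKM in sham. The 14 genes did not all follow the sum: 8 lay above sham in every vagotomy library and 6 overlapped it, while 7 lay above sham in every resection library, 6 overlapped it and 1 lay below. Emr1, the gene of the macrophage antigen F4/80, was at 5.64 ± 0.616 FPKM with vagotomy, 5.06 ± 0.6 FPKM after resection and 1.87 ± 0.424 FPKM in sham. Mrc1, the mannose receptor gene, was at 7.44 ± 0.889, 10.0 ± 4.21 and 8.66 ± 1.78 FPKM, and the complement genes C1qa, C1qb and C1qc overlapped sham in both resected groups. Cx3cr1, the fractalkine receptor gene, was at 1.74 ± 1.03, 1.56 ± 0.52 and 2.71 ± 0.416 FPKM and was the gene below sham in every resection library. No group had one of the 14 at 0 in all of its libraries. The 7 neutrophil markers in the matrix, of 10, summed to 108 to 309 FPKM with vagotomy, 199.6 to 284 FPKM after resection and 18.5 to 42.0 FPKM in sham, and the 4 platelet markers in the matrix, of 6, to 11.8 to 20.8, 17.0 to 50.3 and 4.65 to 6.94 FPKM. These genes did not all follow their sums. S100a8, the other calprotectin subunit gene, was at 42.8 ± 15.3 FPKM with vagotomy and 165 ± 45.5 FPKM after resection (limma adjusted p = 0.0344). S100a9 was at 140 ± 82.6 and 45.4 ± 19.5 FPKM and Retnlg at 26.0 ± 18.4 and 8.64 ± 6.97 FPKM, and neither passed. Cxcr2 and the platelet gene Pf4 overlapped sham with vagotomy, and Camp and Ltf overlapped it after resection. The 8 fibroblast markers summed to 1326 to 1787 FPKM with vagotomy, 1378 to 1745 FPKM after resection and 1453 to 2194 FPKM in sham, with overlapping ranges. Single fibroblast genes did not all follow that sum. With vagotomy, Col3a1 and Lum lay below every sham library, Col1a2 and Pdgfra lay above, and the others overlapped sham. Col3a1 was at 286 ± 132 FPKM with vagotomy and 637 ± 78.1 FPKM in sham, and Col1a2 at 422 ± 214 and 165 ± 51.7 FPKM. By limma 0 of the 8 passed there. Endothelial sums were 384 to 428, 345 to 439 and 299 to 433 FPKM, smooth muscle sums 436 to 607, 359 to 405 and 351 to 419 FPKM, and epicardial sums 38.9 to 70.5, 47.8 to 106 and 40.2 to 46.5 FPKM, each with vagotomy, after resection and in sham. The endothelial gene Emcn was at 8.97 ± 1.52, 32.3 ± 8.53 and 28.8 ± 5.34 FPKM in that order. It was lower with vagotomy than after resection (limma adjusted p = 0.0169) and than in sham (limma adjusted p = 0.0119). Pecam1, Egfl7 and Tie1 lay above every sham library with vagotomy, and the other endothelial markers overlapped sham. Erythroid sums were 245 to 545 FPKM with vagotomy, 724 to 4052 FPKM after resection and 405 to 1253 FPKM in sham. Some of these sums also separated groups. Smooth muscle sums with vagotomy lay above those of both other groups, epicardial sums after resection above sham, and erythroid sums with vagotomy below resection. Against sham, the smooth muscle gene Tagln (limma adjusted p = 0.00767) and the epicardial gene Krt18 (limma adjusted p = 0.0335) rose with vagotomy. The 7 lymphocyte markers were not among the rows of the matrix. The part of these cells in the levels of Spp1 and Cd44 was not tested, and in bulk tissue more cells of a type and more RNA per cell cannot be told apart.

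**Figure D5:**
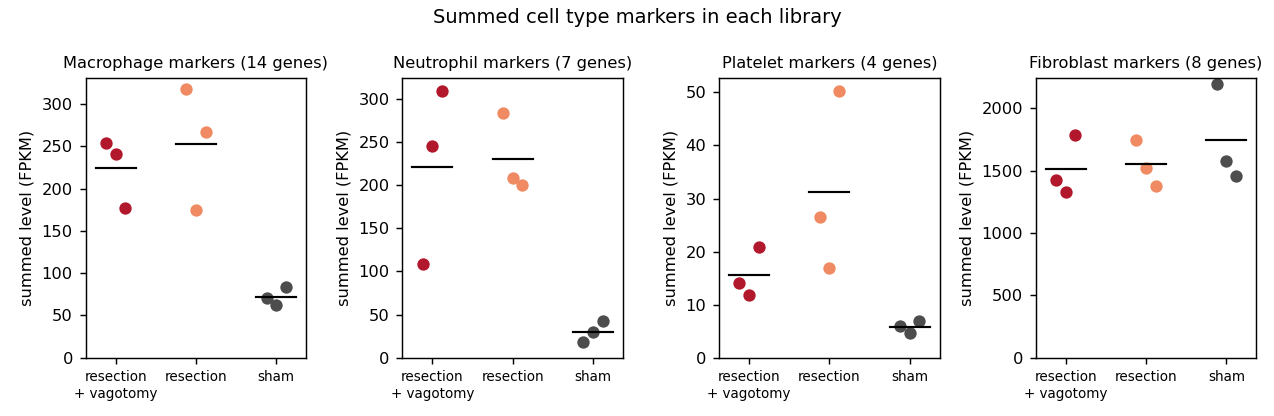
Summed FPKM of macrophage, neutrophil, platelet and fibroblast markers in each library, with a line at the group mean, for resection with vagotomy, resection and sham from left to right. The macrophage sums are 175 to 318 FPKM in the 6 resected libraries and 62.4 to 84.0 FPKM in sham, and the fibroblast ranges overlap.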

How the data were processed

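Per the submitters' processing notes, reads were processed with TopHat2 2.0.9, Cufflinks 2.1.1 and Cuffdiff 2.1.1 on GRCm38. The authors deposited FPKM with a pseudocount of 1 added, which was subtracted, and Cuffdiff tables of group FPKM, p-values and q-values. FPKM are not counts, so depth and counting error are unknown. Values were fitted as log2(FPKM + 1) with limma 3.58.1 (R 4.3.3) over genes averaging 1 FPKM or more, 1 mean per group over all 9 libraries and a mean-variance trend. Contrasts were tested two-sided, with Benjamini-Hochberg adjustment over the 13249 genes and a threshold of 0.05; an exact permutation test of 3 against 3 cannot go below 0.1. The fit was tested on simulated data. The 9 genes, the lists and the naming rule (all 9 genes, fixed list members, list genes past the threshold, the 5 genes nearest to Spp1) were chosen with earlier results of these data known. The contrast of resection with sham brought Spp1 forward, so no p is given there for the 9 genes, nor for Spp1 in vagotomy against sham. Contrasts share libraries. Replicate numbers are those of the sample titles, and libraries titled replicate 3 carry numbers that differ between groups in the deposited matrix. The numbers were checked by correlating deviations from group means between same-numbered libraries. All 3 pairs of vagotomy and resection exceeded 0.1 (0.117 to 0.199), a hint from the data and not from the labels, so blocked counts are given beside those of that comparison. Alternatives were other pseudocounts, filters, scalings, moderation, samples fitted, a replicate block and leaving out each library.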

Additional observations from a re-analysis of the deposited data

How the results depend on the processing

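For the 9 genes, 455 of 480 values under the alternatives were counted as unchanged. Between vagotomy and either other group this meant keeping direction and side of the threshold, except for Spp1 against sham. For Spp1 there, and for all 9 genes between resection and sham, it meant moving by less than the spread between libraries. In those cases filters, moderation, the block and libraries of a group not compared cannot alter the log2 difference. That part of the count was fixed in advance. The log2 differences of the 9 genes that changed sign belonged to no call. With upper-quartile scaling these were Itgb1 at -0.0045 and Itga4 at -0.0152 between vagotomy and resection and Itgb5 at -0.0625 between vagotomy and sham. Quantile normalization gave Itgb5 at -0.0531 there, and a pseudocount of 5 gave Itga4 at -0.0024 between vagotomy and resection. Leaving out 1 library gave, between vagotomy and resection, -0.60 to 0.025 for Cd44, -0.22 to 0.30 for Itgb1, -0.20 to 0.16 for Itga4 and -0.46 to 0.23 for Itga9, and, between vagotomy and sham, -0.14 to 0.39 for Itgb1 and -0.14 to 0.25 for Itgb5. Between resection and sham, Itgav was -0.11 and Itgb1 -0.06 without resection replicate 2, and Itgb1 was -0.19 without sham replicate 1. Among the list genes, Fosl1 lost its call with upper-quartile scaling, Itgam and F13a1 lost theirs between resection and sham with only the 6 libraries compared, and Itgam also with a pseudocount of 5. Over all genes, vagotomy against resection had 466 calls, 29 with only the 6 libraries compared, and 42 to 591 leaving out 1 library (130, 166 and 68 without vagotomy replicates 1, 2 and 3, 42 without resection replicate 2, 93 and 72 without sham replicates 2 and 3). Vagotomy against sham had 1334 calls, 1474 with only the 6 libraries compared, and 100 to 1701 leaving out 1 library (598, 640 and 533 without vagotomy replicates 1, 2 and 3, 100 and 119 without sham replicates 2 and 3). Resection against sham had 39 calls, 13 with only the 6 libraries compared, 66 and 23 with pseudocounts of 0.1 and 5, and 11 to 59 leaving out 1 library (21 without vagotomy replicate 2; 21 without the first, 59 without the second and 16 without the third resection replicate; 18 without sham replicate 1 and 11 without sham replicate 2). The cause of these changes was not tested. The replicate block gave 1277, 2413 and 55 calls in these comparisons. Every same-numbered pair correlated over 0.1 only for vagotomy and resection. Same-numbered correlations were -0.019 to 0.19 for vagotomy and sham and 0.013 to 0.50 for resection and sham. The highest of all, 0.498, was that of resection replicate 1 and sham replicate 1. In each of the comparisons the samples are known to share only the number in their titles. A library correlated best with its own number in 13 of 18 cases. With the block 2 of the 9 genes passed between resection and sham, Spp1 and Cd44, in place of 1, and the counts of the 9 in the other comparisons did not change. Of the 5 genes nearest to Spp1, 2 and 3 recurred with pseudocounts of 0.1 and 5. FPKM hold no depth, so the precision of low genes such as Itga4 is unknown.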
